A study of Mus musculus with 11 samples.

Results

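The genes described here are 10 regulators of the G1 phase of the cell cycle, taken as a list of named genes: the Cdk inhibitors Cdkn1a, Cdkn1b and Cdkn2c, the cyclins Ccnd1, Ccnd2, Ccnd3 and Ccne1, the kinases Cdk4 and Cdk6, and the pocket protein gene Rb1. All 10 were found by symbol among the 53453 gene rows of the deposited table, and all 10 were among the 13549 genes tested, those that reached 1 TPM in 5 libraries or more. Total RNA was sequenced from directional libraries of primary neurospheres (free-floating spheres of cultured neural precursors) derived from the brain of E15.5 mouse embryos. The 5 Klf5 overexpression libraries came from as many embryos, and the 6 control libraries from as many embryos with no treatment. How Klf5, a zinc finger transcription factor, was overexpressed, in which cells, and the strain and sex of the embryos are not stated by the labels.

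In G1, D-type cyclins bind Cdk4 or Cdk6, and cyclin E binds Cdk2, and these kinases phosphorylate the retinoblastoma protein Rb1. Unphosphorylated Rb1 holds E2F transcription factors in check, and its phosphorylation frees them to switch on the genes of DNA replication. The INK4 inhibitors, among them Cdkn2c, bind Cdk4 and Cdk6, while the Cip and Kip inhibitors Cdkn1a (p21) and Cdkn1b (p27) bind cyclin-Cdk complexes, with Cdk2 as a main target. In the developing mouse brain the length of G1 is tied to whether a precursor divides again or differentiates.

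The promoter windows shown are those of Cdkn1a and Ccne1. In deposited TPM, only these 2 members had no overlap between the 5 overexpression and 6 control libraries, hence the choice. The windows come from RefSeq (GRCm38.p6) and run from 250 bases before to 50 bases after an annotated start. Capitals mark the CACCC box (CACCC, or GGGTG on the other strand) and the GC box (GGGCGG, or CCGCCC on the other strand), sequence types that Kruppel-like factors are known to bind; where matches overlap, their letters run together.
Cdkn1a upstream start, chr17:29090729-29091028, plus strand: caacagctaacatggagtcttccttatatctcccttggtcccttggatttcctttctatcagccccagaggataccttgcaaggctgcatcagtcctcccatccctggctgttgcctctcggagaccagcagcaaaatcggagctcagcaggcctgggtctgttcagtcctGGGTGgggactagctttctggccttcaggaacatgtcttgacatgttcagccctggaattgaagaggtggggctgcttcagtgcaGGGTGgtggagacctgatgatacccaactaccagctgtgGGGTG
Cdkn1a downstream start, chr17:29093519-29093818, plus strand: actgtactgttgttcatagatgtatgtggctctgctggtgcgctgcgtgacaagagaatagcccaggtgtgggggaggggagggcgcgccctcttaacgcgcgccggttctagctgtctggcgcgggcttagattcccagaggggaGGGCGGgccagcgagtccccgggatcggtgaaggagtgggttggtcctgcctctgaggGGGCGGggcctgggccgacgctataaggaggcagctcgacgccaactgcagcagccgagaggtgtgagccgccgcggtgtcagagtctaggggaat
Ccne1, chr7:38107441-38107740, minus strand: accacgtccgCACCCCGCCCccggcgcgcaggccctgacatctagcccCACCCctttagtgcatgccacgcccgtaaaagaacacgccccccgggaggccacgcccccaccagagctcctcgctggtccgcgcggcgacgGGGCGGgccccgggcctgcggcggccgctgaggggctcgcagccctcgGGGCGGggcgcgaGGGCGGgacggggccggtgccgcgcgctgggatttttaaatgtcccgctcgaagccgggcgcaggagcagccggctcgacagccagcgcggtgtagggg
The upstream Cdkn1a window held 3 CACCC boxes and no GC box, and the downstream window held 2 GC boxes and no CACCC box. The Ccne1 window held 2 CACCC boxes and 4 GC boxes. Windows were found for 7 of the 10 members, 10 windows in all, of which 8 held a CACCC box and 7 a GC box. Over all 32851 mouse promoter windows of the same length, 57.5% held a CACCC box and 35.7% a GC box. A match is a description of the letters only, and no binding was measured.

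Klf5 transcripts stood at 93.0, 91.4, 58.7, 82.1 and 53.6 TPM in overexpression libraries 1 to 5, against 0.371 to 1.29 TPM in the 6 control libraries, so every library matched its label. TPM is an abundance scaled for transcript length and to a fixed total per library, so levels of different genes in 1 library can be set side by side, but it keeps no sequencing depth, and the depth is unknown. The rows given summed to 730832 to 821967 TPM with overexpression, against 814208 to 846780 TPM in controls. Rows that resemble ribosomal RNA took 12.8 to 30.4% of these sums with overexpression and 19.6 to 31.5% in controls. Markers of neural stem and progenitor cells (10 of 10 with a mean of at least 1 TPM in both groups) summed to 3717 to 5731 TPM with overexpression and 4789 to 7897 TPM in controls. Oligodendrocyte lineage markers summed to 747 to 917 and 623 to 943 TPM, neuronal markers to 201 to 317 and 226 to 343 TPM, and astrocyte markers to 47.8 to 100.1 and 76.8 to 120.4 TPM, overexpression before control. Of 7 microglial markers 4 (Aif1, Cx3cr1, Tyrobp and C1qa) were listed at 0 in all 11 libraries, as were 4 of 6 erythroid markers, and the sums of microglial, endothelial, erythroid and mural markers stayed at or below 3.04 TPM with overexpression and 5.49 TPM in controls. In such bulk samples, fewer cells with a transcript and less of it per cell cannot be told apart, and the part of cell makeup in the results below was not tested.

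Of the 10 G1 regulators, 1 rose, none fell and 9 did not pass the test with Klf5 overexpression. The gene that rose was Cdkn1a. The test was limma on log2(TPM + 1) with Benjamini-Hochberg adjustment over all genes tested, at a threshold of 0.05, and it called 3.72% of all genes, 2.29% as higher and 1.43% as lower. At an unadjusted p under 0.05 there were 4 members (Cdkn1a, Ccne1, Ccnd3 and Cdk6), beside 12.6% of all genes. In deposited TPM the groups did not overlap for 2 members, Cdkn1a above and Ccne1 below the controls. The share over all genes was 3.29%, 1.99% above and 1.31% below. The median log2 fold change of the 10 members was -0.09, beside -0.04 for all genes tested. Because the members were chosen with earlier results of these data known, these counts are no test of the list.

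**Figure D1:**
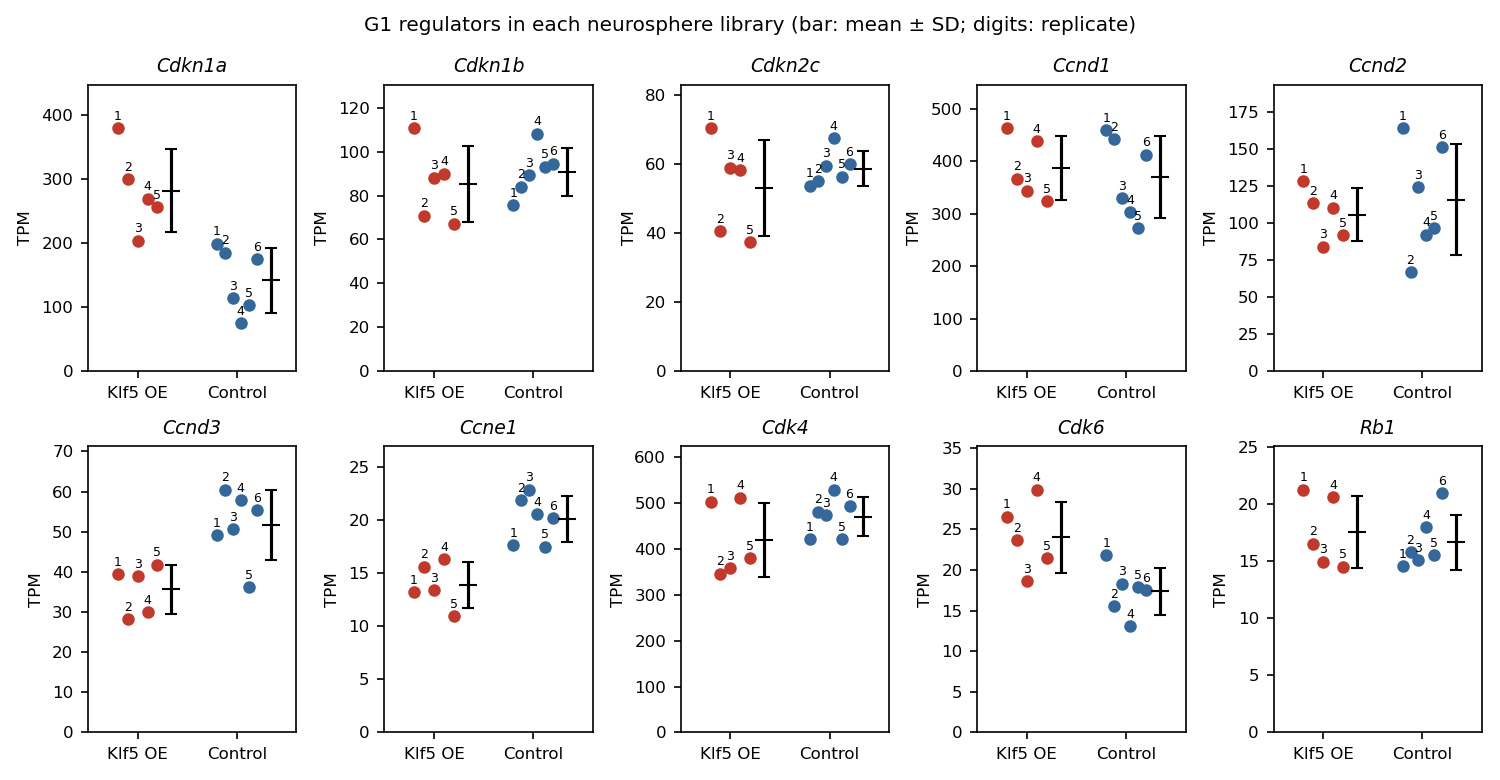
TPM (vertical axes, each from 0) of the 10 G1 regulators in each library, with Klf5 overexpression (Klf5 OE, red, 5 libraries) left of control (blue, 6 libraries); digits are replicate numbers and the black bars show the mean ± SD. All Cdkn1a points with overexpression lie above all control points, all Ccne1 points with overexpression lie below them, and the other 8 genes overlap between groups.

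Cdkn1a encodes p21, an inhibitor of cyclin-Cdk complexes and a classic target of p53 (ENSMUSG00000023067, chromosome 17, 29090976 to 29100727, plus strand, GRCm38). It had 379, 299, 203, 269 and 256 TPM in overexpression libraries 1 to 5, against 199, 185, 113, 74.5, 102 and 175 TPM in control libraries 1 to 6. The lowest overexpression library was just above the highest control library, and the controls spread over a 2.67-fold range. The means were 281 ± 64.7 TPM (SD, n = 5) and 141 ± 51.1 TPM (SD, n = 6), a ratio of 1.99. On the log2 scale the change came to 1.04 ± 0.23 (SE; limma, adjusted p = 0.0166). The call was lost without overexpression library 1, which held the highest value (adjusted p = 0.0517), and with no filter on low values (0.111), while the ratio stayed between 1.82 and 2.16 whichever library was left out. The difference was as large after trimmed-mean scaling of the libraries (log2 fold change 1.09, adjusted p = 0.0225) and without the rows that resemble ribosomal RNA and the mitochondrial rows (1.09, adjusted p = 0.0212). The full separation of the groups is that of deposited TPM. Trimmed-mean scaling divides each library by a factor, 1.04 for overexpression library 3 and 0.913 for control library 1. After it, control library 1 lay above overexpression library 3, so the groups overlapped.

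Cdkn1b, which encodes p27 and is used by many cell types to leave the cycle (chromosome 6, 134920401 to 134925513, plus strand), had 67.2 to 111 TPM in the overexpression libraries, with a median of 88.2, against 75.5 to 108 TPM in controls, with a median of 91.3. Its log2 fold change was -0.10, with a 95% interval of -0.39 to 0.19 (limma adjusted p = 0.889). Cdkn2c, which encodes the INK4 inhibitor p18 (chromosome 4, 109660876 to 109667189, minus strand), had 70.3, 40.4, 58.8, 58.1 and 37.3 TPM with overexpression, against 53.7, 54.9, 59.5, 67.3, 56.2 and 59.9 TPM in controls. In deposited TPM, overexpression libraries 2 and 5 lay below every control library and library 1 above every one. After trimmed-mean scaling, overexpression library 1 (factor 1.15) lay below control libraries 4 and 5, while overexpression libraries 2 and 5 stayed below every control. Its log2 fold change was -0.18 (95% interval -0.50 to 0.15, limma adjusted p = 0.768). The intervals of both genes leave out a change as large as that of Cdkn1a.

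The summed TPM of these 3 inhibitors was 419.5 ± 83.8 (SD, n = 5) with overexpression, against 291 ± 39.8 (SD, n = 6) in controls. Cdkn1a made up 67.7, 72.9, 58.0, 64.5 and 71.0% of this sum in overexpression libraries 1 to 5, against 60.6, 57.0, 43.2, 29.8, 40.7 and 53.1% in control libraries 1 to 6. This share, which does not depend on how libraries are scaled against each other, overlapped between groups in 1 pair of libraries, overexpression 3 and control 1. Cdkn1a was therefore the most abundant of the 3 in every overexpression library, whereas Cdkn1b was the most abundant in control library 4. The share among inhibitors was chosen after the values were seen and has no test.

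The D-type cyclins carry growth signals to Cdk4 and Cdk6, and Ccnd1 and Ccnd2 are the forms best known in neural precursors. Ccnd1 (chromosome 7, 144929931 to 144939925, minus strand) had 463, 367, 344, 439 and 324 TPM with overexpression, against 459.8, 442, 330.0, 303, 273 and 412 TPM in controls. The groups overlapped over most of their range, with a log2 fold change of 0.08 (95% interval -0.25 to 0.40, limma adjusted p = 0.932). Ccnd2 (chromosome 6, 127125162 to 127152193, minus strand) had 84.0 to 128 TPM with overexpression, with a median of 110.2, and 66.6 to 164 TPM in controls, with a median of 110.1. Its log2 fold change was -0.08 (95% interval -0.51 to 0.34, limma adjusted p = 0.956), with no direction that held over the settings tried.

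Ccnd3, the least abundant D cyclin here (chromosome 17, 47505051 to 47599691, plus strand), had 39.4, 28.3, 38.9, 30.0 and 41.8 TPM with overexpression, against 49.2, 60.5, 50.6, 57.9, 36.2 and 55.4 TPM in controls. All 5 overexpression libraries lay below 5 of the 6 control libraries, and control library 5 lay among them. The means were 35.7 ± 6.08 TPM (SD, n = 5) and 51.6 ± 8.67 TPM (SD, n = 6), a ratio of 0.691. The difference of -0.52 ± 0.15 (SE) in log2 did not pass (limma adjusted p = 0.0755). Without control library 5 the adjusted p was 0.0203, and with array weights 0.0270. The Ccnd3 gene overlaps Bysl on the other strand, which had 26.0 TPM with overexpression and 23.1 TPM in controls, and whether the quantification used the strand is not stated.

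The D cyclins together summed to 528 ± 74.7 TPM over the overexpression libraries (SD, n = 5) and to 537 ± 101.6 TPM over the controls (SD, n = 6), with no test. Ccnd1 took 73.2% ± 1.87 and 68.7% ± 4.49 of this sum, Ccnd2 19.9% ± 1.61 and 21.5% ± 5.07, and Ccnd3 6.89% ± 1.75 and 9.78% ± 1.86, each given for overexpression (SD, n = 5) and then control (SD, n = 6). Control library 2 stood apart from the other controls, with 77.7% Ccnd1 and 11.7% Ccnd2. Over all 6 controls the Ccnd1 share ran from 65.4 to 77.7% and overlapped the 70.8 to 75.8% of the overexpression libraries. It was 65.4 to 68.3% in the other 5 controls, but library 2 was set aside there only after the values were seen.

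Ccne1, cyclin E1, partners Cdk2 late in G1 and is itself an E2F target (chromosome 7, 38097984 to 38107534, minus strand). It had 13.2, 15.6, 13.4, 16.3 and 10.9 TPM with overexpression, against 17.6, 21.8, 22.9, 20.6, 17.5 and 20.2 TPM in controls. Every overexpression library lay below every control library. The means were 13.9 ± 2.14 TPM (SD, n = 5) and 20.1 ± 2.18 TPM (SD, n = 6), a ratio of 0.691. The difference of -0.51 ± 0.14 (SE) in log2 missed the threshold (limma adjusted p = 0.0578). It passed with trimmed-mean scaling (adjusted p = 0.0273), quantile normalization (0.0201), removal of ribosomal RNA-like and mitochondrial rows (0.0289) and array weights (0.0321), 4 of 11 other settings, and in none of the 11 fits with 1 library left out (0.0548 to 0.1502). Ccne2, the other cyclin E gene, averaged 17.8 TPM with overexpression and 15.3 TPM in controls (log2 fold change 0.20, limma adjusted p = 0.808).

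Cdk4, the more abundant partner of the D cyclins (chromosome 10, 127063534 to 127067920, plus strand), had 503, 346, 358, 512 and 379 TPM with overexpression, against 421, 481, 474, 529, 421 and 494 TPM in controls. In deposited TPM, overexpression libraries 2, 3 and 5 lay below every control, and libraries 1 and 4 above most of them. This split depends on library scale, with trimmed-mean factors of 1.15 for overexpression library 1 and 0.815 for library 5. After that scaling, overexpression library 1 lay below every control and library 5 above most of them. Its log2 fold change was -0.18 (95% interval -0.45 to 0.09, limma adjusted p = 0.692). Cdk4 overlaps Tspan31 on the other strand, which averaged 78.4 TPM with overexpression and 82.4 TPM in controls. Cdk6 (chromosome 5, 3341485 to 3531008, plus strand) had 26.6, 23.7, 18.6, 29.9 and 21.4 TPM with overexpression, against 21.9, 15.6, 18.3, 13.1, 17.9 and 17.5 TPM in controls. All 5 overexpression libraries lay above 5 of the 6 controls, and control library 1 lay among them. The difference of 0.44 ± 0.16 (SE) in log2 did not pass (limma adjusted p = 0.173).

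Within a library, Cdk6 made up 5.02, 6.41, 4.96, 5.52 and 5.35% of the summed TPM of Cdk4 and Cdk6 in overexpression libraries 1 to 5, against 4.94, 3.14, 3.72, 2.42, 4.07 and 3.43% in control libraries 1 to 6. Every overexpression library was above every control library, although control library 1 came within a small margin of overexpression library 3. This share has no test. Cdk4 thus stayed the main transcript of the pair in all libraries, at 94.5% ± 0.586 (SD, n = 5) of the sum with overexpression and 96.4% ± 0.855 (SD, n = 6) in controls.

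**Figure D2:**
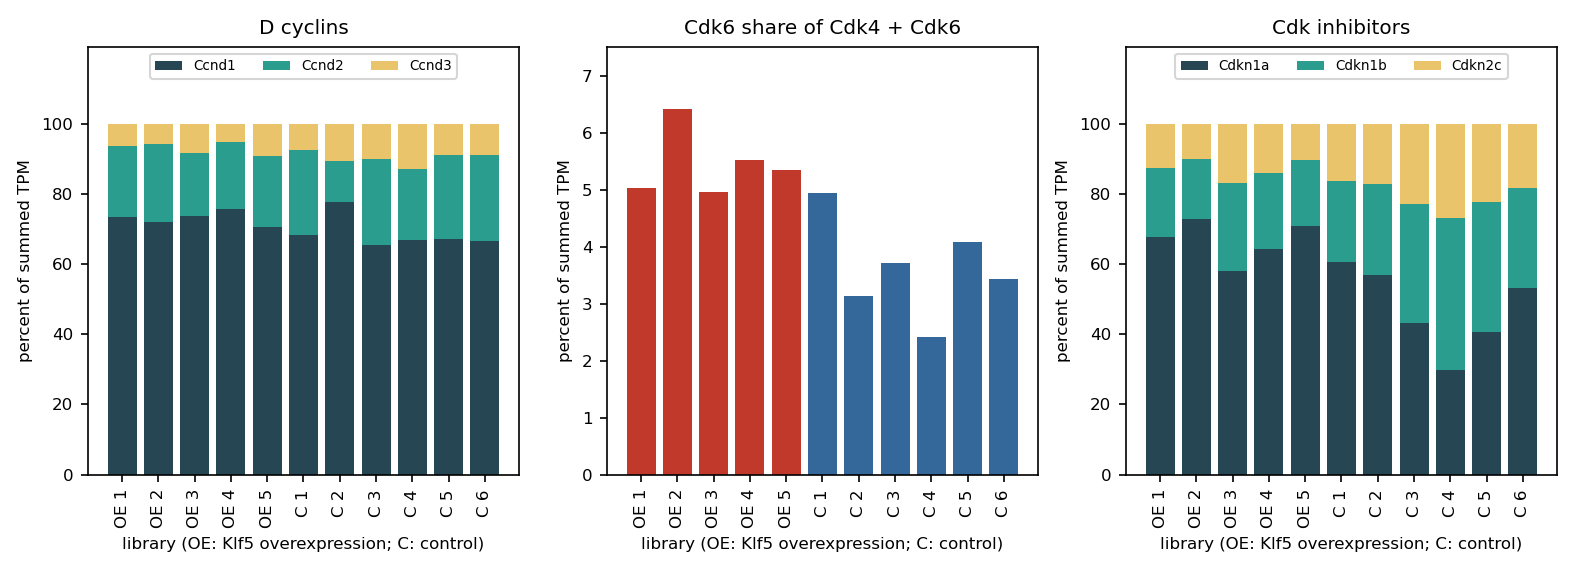
Percent of summed TPM (vertical axes) in each library, with overexpression libraries (OE 1 to 5) left of controls (C 1 to 6), for the 3 D cyclins (left), for Cdk6 within Cdk4 plus Cdk6 (middle, red overexpression and blue control) and for 3 Cdk inhibitors (right). Cdk6 takes 4.96 to 6.41% with overexpression and 2.42 to 4.94% in controls, and Cdkn1a takes 58.0 to 72.9% and 29.8 to 60.6% of the inhibitor sum.

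Rb1, the pocket protein that G1 kinases phosphorylate (chromosome 14, 73183673 to 73325822, minus strand), had 21.2, 16.5, 14.9, 20.6 and 14.5 TPM with overexpression, against 14.6, 15.8, 15.1, 18.0, 15.51 and 20.9 TPM in controls. The groups overlapped throughout, with a log2 fold change of 0.07 (95% interval -0.25 to 0.38, limma adjusted p = 0.947). Rb1 overlaps Rcbtb2 (19.4 TPM with overexpression, 23.9 TPM in controls) and Lpar6 (3.90 and 3.84 TPM), both on the other strand.

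**Figure D3:**
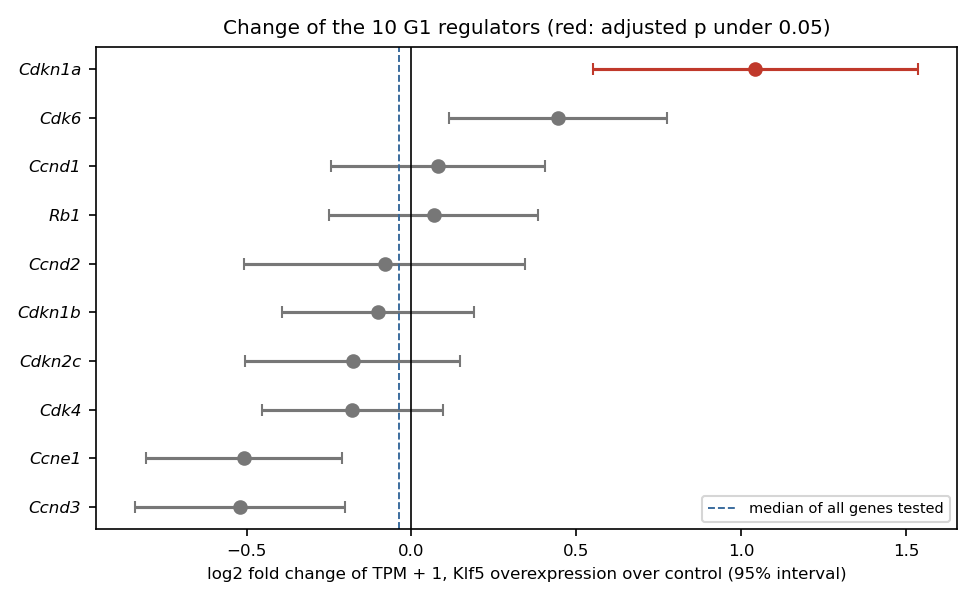
Log2 fold change of TPM + 1, Klf5 overexpression over control (horizontal axis), of the 10 G1 regulators, with 95% intervals from limma; red marks an adjusted p under 0.05 and the dashed line the median of all genes tested, -0.04. Cdkn1a at 1.04 is the one red point, and the intervals of Cdk6, Ccne1 and Ccnd3 also leave out 0 before adjustment.

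In both groups Cdk4 was the most abundant member and Ccnd1 the second, with overlapping ranges. Cdkn1a came next in both. With overexpression it lay above Ccnd2 in 5 of 5 libraries, without overlap of their ranges, whereas in controls Cdkn1a and Ccnd2 overlapped and Cdkn1a was higher in 4 of 6 libraries. Ccnd2, Cdkn1b, Cdkn2c and Ccnd3 followed in this order in both groups. At the low end the order was Cdk6, Rb1, Ccne1 with overexpression, where Cdk6 was above Rb1 and Rb1 above Ccne1 in 5 of 5 libraries, and Ccne1, Cdk6, Rb1 in controls, where Ccne1 was above Cdk6 in 4 of 6 and Cdk6 above Rb1 in 3 of 6. Among controls Cdkn1a and Ccnd2 varied most, with coefficients of variation of 36.1% and 32.3%, and Cdkn2c and Cdk4 least, with 8.46% and 9.03%. With overexpression the coefficients ran from 15.4% (Ccne1) to 26.1% (Cdkn2c). All these coefficients are of deposited TPM and include differences in library scale. The trimmed-mean factors ran from 0.815 to 1.15 with overexpression and from 0.913 to 1.11 in controls.

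In deposited TPM, overexpression library 5 held the lowest value of its group for 5 of 10 members and library 1 the highest for 6. Library 5 also had the lowest sum of listed TPM and library 1 the lowest share of ribosomal RNA-like rows. After trimmed-mean scaling these counts were 1 and 2, and library 3 was then lowest for 6 members. Control libraries 1, 2 and 6 held the 3 highest control values of both Cdkn1a and Ccnd1, a pattern shown by 7.05% of all genes tested and described after the values were seen.

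The other genes of the pathway were read from lists that hold 91 genes, of which 90 were tested. Of these, 2 rose, none fell and 88 did not pass, beside 3.72% of all genes called, and their median log2 fold change was -0.04. The 2 that rose were Cdc25b and Gdf15. With trimmed-mean scaling or quantile normalization 3 rose and 2 fell, and without ribosomal RNA-like and mitochondrial rows 3 rose and 3 fell. The genes higher there were Cdc25b, Mdm2 and Trp53, and the genes lower were Fbxo31 and Wee1, a kinase that inhibits Cdks, and without those rows also E2f5 (adjusted p = 0.0414). Wee1, named after its values were seen, averaged 20.8 TPM with overexpression and 28.2 TPM in controls, with a log2 fold change of -0.43 that did not pass on deposited TPM (limma adjusted p = 0.176). In deposited TPM the groups did not overlap for Cdc25b (higher) and Fbxo31 (lower), 2 of 90 genes. This count is near the background of 3.29% of all genes, 1.99% higher and 1.31% lower. It was not repeated after trimmed-mean scaling, where the groups also did not overlap for Trp53 (higher).

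**Figure D4:**
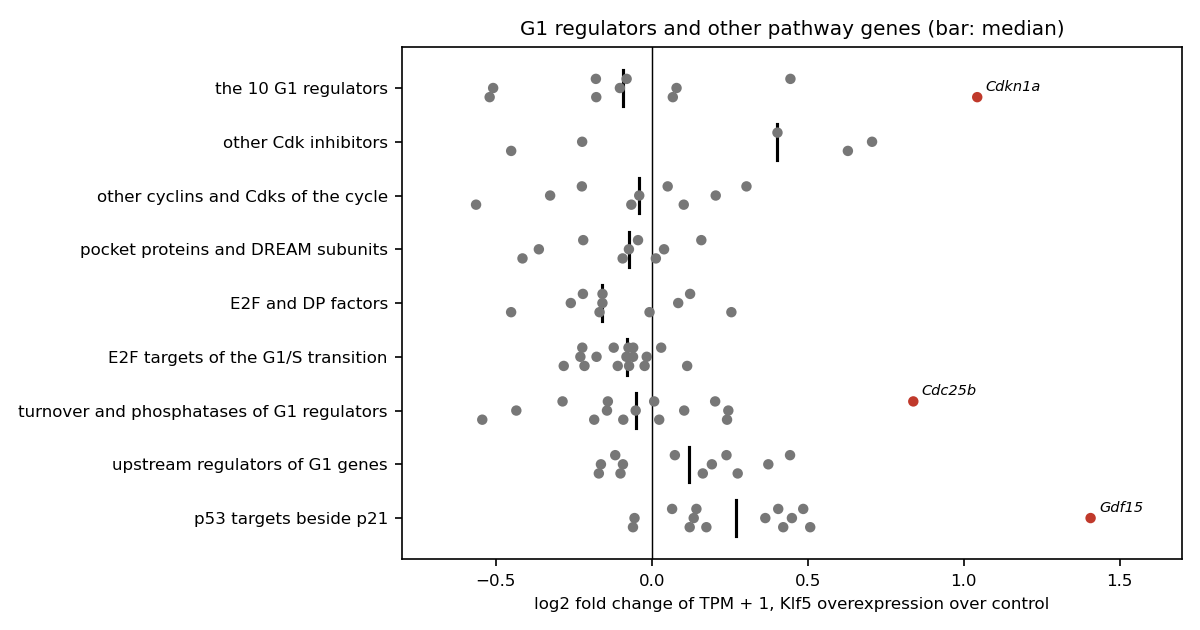
Log2 fold change of TPM + 1, Klf5 overexpression over control (horizontal axis), of each tested gene in 9 lists (rows; vertical jitter for legibility); red marks an adjusted p under 0.05 and black bars the list medians. Cdkn1a, Cdc25b and Gdf15 are the red points, and the E2F targets lie between -0.28 and 0.11.

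The other Cdk inhibitors numbered 5, and none passed the test, with a median log2 fold change of 0.40. Cdkn2b, which encodes the INK4 inhibitor p15, had 6.46, 7.72, 1.67, 2.92 and 3.74 TPM with overexpression, against 5.198, 1.59, 1.63, 3.17, 1.19 and 2.08 TPM in controls (log2 fold change 0.63, limma adjusted p = 0.482). Cdkn2a, whose locus encodes both p16 and the p53 activator Arf, had 17.5, 49.4, 9.72, 13.5 and 4.78 TPM with overexpression, against 13.0, 14.9, 6.13, 6.33, 7.02 and 6.28 TPM in controls (log2 fold change 0.71, limma adjusted p = 0.566). Overexpression library 2 stood far above the rest for Cdkn2a. The imprinted inhibitor gene Cdkn1c averaged 31.1 TPM with overexpression and 22.7 TPM in controls, and Cdkn2d 35.4 and 40.8 TPM, so both were well expressed and neither passed (limma adjusted p = 0.638 and 0.792).

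Among 15 genes for the turnover of G1 regulators and for the phosphatases and kinases that act on Cdks, 1 rose, none fell and 14 did not pass, with a median of -0.05. Cdc25b, a phosphatase that activates Cdks and is known in neural progenitors, had 53.9, 39.2, 43.5, 44.2 and 28.0 TPM with overexpression, against 20.1, 21.9, 21.4, 27.3, 21.4 and 23.0 TPM in controls. Every overexpression library exceeded every control, library 5 by a small margin. The increase was 0.84 ± 0.15 (SE) in log2, and its limma adjusted p of 0.00353 stayed between 0.000506 and 0.0156 with each library left out. Fbxo31, an F-box protein linked to cyclin D1 turnover in human cells, had 7.58 to 10.7 TPM with overexpression, with a median of 10.2, and 11.5 to 16.7 TPM in controls, with a median of 14.7. Its log2 fold change was -0.54 ± 0.15 (SE) and its limma adjusted p 0.0547, which passed in 5 of 11 other settings (0.00445 with quantile normalization) and without control library 1 (0.0349).

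Of 9 other cyclins and Cdks tested, of 10 listed, none passed, with a median of -0.04; Ccna1 was under the limit for testing. Ccnb2, a mitotic cyclin, averaged 16.5 ± 7.23 TPM (SD, n = 5) with overexpression, against 23.8 ± 4.75 TPM (SD, n = 6) in controls (limma adjusted p = 0.235, and 0.0252 without overexpression library 1). Ccnh, the cyclin of the Cdk-activating kinase, averaged 25.5 ± 2.12 and 20.6 ± 3.06 TPM (limma adjusted p = 0.343). Cdk2, the partner of cyclin E, averaged 43.5 TPM with overexpression and 39.8 TPM in controls (log2 fold change 0.10, limma adjusted p = 0.901).

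None passed of 9 genes listed for pocket proteins, the DREAM complex and the separate transcription factors Mybl2 and Foxm1, with a median of -0.07. Rbl1, which encodes p107, averaged 13.5 ± 2.61 TPM (SD, n = 5) with overexpression, against 17.5 ± 1.25 TPM (SD, n = 6) in controls (limma adjusted p = 0.254), and Foxm1, a transcription factor of mitotic genes, 46.5 ± 10.3 and 61.8 ± 10.7 TPM (limma adjusted p = 0.269). None of 10 E2F and DP genes passed, with a median of -0.16. E2f5, an E2F that acts with pocket proteins as a repressor, averaged 15.6 ± 3.08 TPM with overexpression and 21.5 ± 1.92 TPM in controls (limma adjusted p = 0.129), and E2f6 30.8 ± 6.98 and 35.4 ± 1.88 TPM (limma adjusted p = 0.621).

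The 16 E2F targets of the G1/S transition held no gene that passed and none with an unadjusted p under 0.05. Their median was -0.08 on deposited TPM, with 14 of 16 below 0, beside 7800 of 13549 genes tested. The median of all genes was -0.04 there, 0.002 after trimmed-mean scaling and 0.036 with the listed rows rescaled to 1 common sum. Many of the 16 values are small, and the count below 0 was not repeated after scaling. Mcm2, a subunit of the replicative helicase, averaged 77.3 ± 15.6 TPM (SD, n = 5) with overexpression, against 88.8 ± 8.29 TPM (SD, n = 6) in controls (limma adjusted p = 0.616), and Tyms, which makes thymidylate, 14.6 ± 4.96 and 17.4 ± 2.26 TPM (limma adjusted p = 0.636). For Mcm2 the 95% interval of the log2 fold change was -0.50 to 0.07. The change itself was -0.22 on deposited TPM, -0.17 after trimmed-mean scaling and -0.14 with rescaled listed rows.

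Upstream of these genes, none of 12 regulators passed, with a median of 0.12. Trp53, the p53 gene, had 124, 93.7, 115, 125 and 84.0 TPM with overexpression, against 77.7, 91.8, 79.8, 79.0, 72.3 and 95.9 TPM in controls (log2 fold change 0.37, limma adjusted p = 0.162). It passed with trimmed-mean scaling (adjusted p = 0.00177), quantile normalization (0.00202), removal of ribosomal RNA-like and mitochondrial rows (0.00213), array weights (0.0289) and rescaling of the listed rows (0.0253). Mdm2, the ubiquitin ligase and target of p53, averaged 46.3 ± 4.82 TPM (SD, n = 5) with overexpression, against 34.3 ± 7.57 TPM (SD, n = 6) in controls (limma adjusted p = 0.147), and passed in 4 of 11 other settings. Myc, an activator of G1 genes, averaged 93.0 TPM with overexpression and 83.0 TPM in controls (limma adjusted p = 0.718).

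Among 14 p53 targets beside p21, 1 rose, none fell and 13 did not pass. Their median log2 fold change was 0.27 on deposited TPM, with 12 of 14 above 0, beside 5749 of 13549 genes tested. An unadjusted limma p under 0.05 was found for 4 of 14, beside 12.6% of all genes. Since the list was chosen with earlier results of these data known, these counts are no test of it. The gene that rose was Gdf15, a secreted stress factor, at 25.0, 11.96, 13.0, 14.5 and 25.5 TPM with overexpression, against 15.49, 10.3, 3.18, 2.66, 3.00 and 7.80 TPM in controls. Control library 1 lay above 3 overexpression libraries, and the same 3 control libraries were high as for Cdkn1a. Its limma adjusted p of 0.0451 was above 0.05 for 9 of the 11 single libraries that could be left out, and under 7 of 11 other settings (0.0612 with trimmed-mean scaling). Trp53inp1, a stress-induced p53 cofactor, averaged 66.9 ± 11.7 TPM (SD, n = 5) with overexpression, against 51.5 ± 6.85 TPM (SD, n = 6) in controls (limma adjusted p = 0.201).

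The pattern of Cdkn1a over the 11 libraries was most like that of Dhh, Upp1 and Klf4, by the root mean square difference of centred log2(TPM + 1), which was 0.19, 0.25 and 0.27. Dhh, which encodes Desert hedgehog, had 88.7, 73.8, 54.0, 65.5 and 66.5 TPM with overexpression, against 33.5, 45.5, 29.3, 18.0, 19.5 and 45.1 TPM in controls. The groups did not overlap (log2 fold change 1.176 ± 0.23 (SE), limma adjusted p = 0.00561). Upp1, a uridine phosphorylase, averaged 10.7 ± 2.77 TPM with overexpression and 5.50 ± 2.24 TPM in controls (limma adjusted p = 0.0460, a call lost for 8 of the 11 single libraries that could be left out). Klf4, the other Kruppel-like factor in the study's title, had 10.8, 6.09, 4.05, 6.90 and 8.04 TPM with overexpression, against 6.88, 4.96, 3.12, 2.07, 3.18 and 5.99 TPM in controls, and its log2 fold change of 0.63 did not pass (limma adjusted p = 0.322). These 3 genes were picked for their likeness, which therefore has no test.

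**Figure D5:**
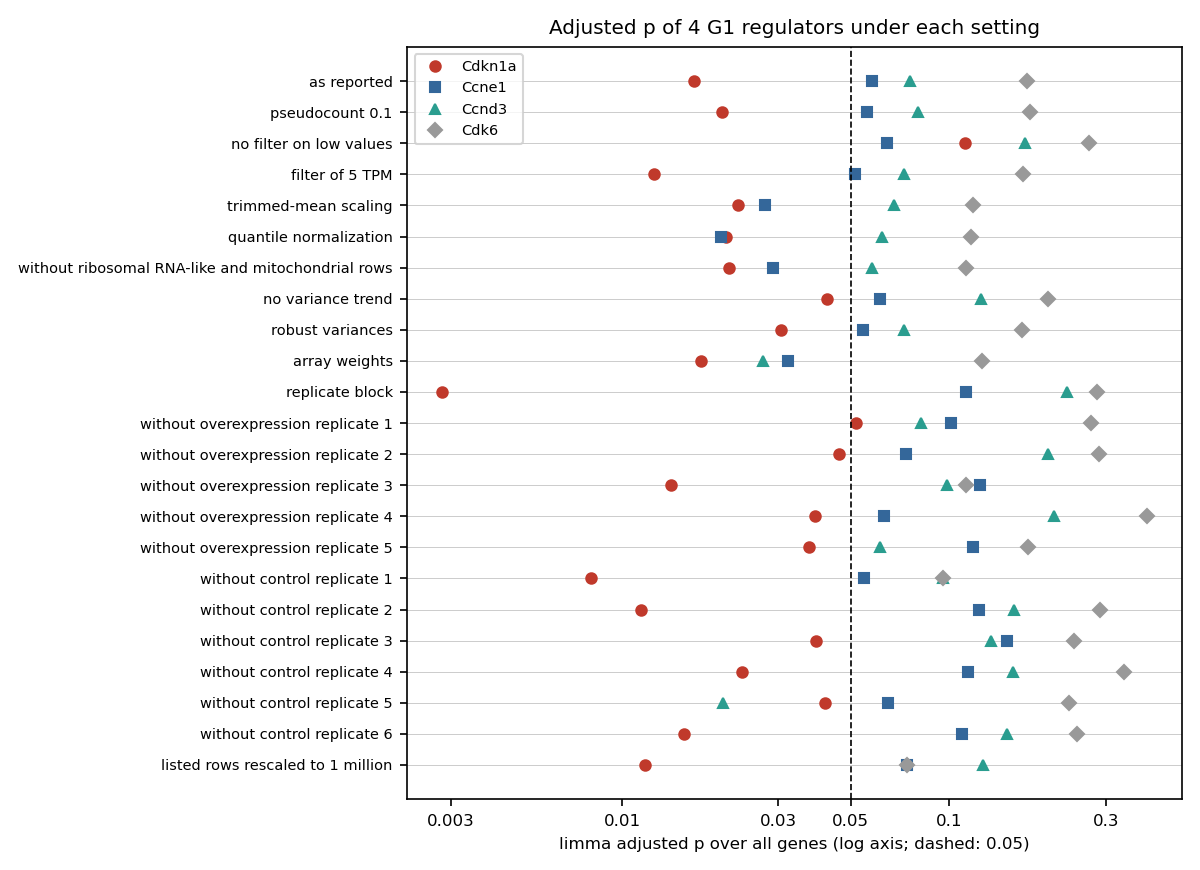
Limma adjusted p over all genes (horizontal log axis) of Cdkn1a, Ccne1, Ccnd3 and Cdk6 under each setting (rows); the dashed line is the threshold of 0.05. Cdkn1a crosses to the right without a filter on low values and without overexpression replicate 1, Ccne1 crosses to the left in 4 settings, Ccnd3 in 2 and Cdk6 in none.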

How the data were processed

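The authors deposited 1 table of TPM values (abundance per transcript length, scaled to a fixed total) with 53453 gene rows and 1 column per library, not pooled. Tools named in the submitters' processing notes are HISAT2, StringTie, HTSeq and DESeq2, with the mouse build GRCm38.p5; neither their versions and roles nor the annotation and strand option are stated there. The kit was directional, per the labels' protocols. Columns were tied to samples by the library number in the labels, and identifiers to symbols by a reference list (53255 rows matched; Skp1 is listed as Skp1a). Coordinates are those of GENCODE M21 (GRCm38), counted from 1.

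Genes that reached 1 TPM in 5 or more libraries (13549) were tested as log2(TPM + 1), with a pseudocount of 1, by limma 3.58.1 (R 4.3.3) with a variance trend, two-sided, without covariates, and p-values were adjusted over all genes tested. A fold change on this scale understates that of low genes. Sequencing depth is unknown, so precision rests on the spread between libraries. Tables and figures were made with Python 3.11.15. The fit was tested on simulated data with independent noise for each gene. These data held no shift shared by a whole library, so that test does not cover such shifts.

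Named genes are Klf5, the 10 members, from each of 8 other pathway lists every gene past the threshold and the 2 with the smallest p, and the 3 genes most like a member past the threshold; others named, such as Ccne2, Cdk2, Myc, Wee1, Cdkn1c and Cdkn2d, were chosen after their values were seen. Members and lists were chosen with earlier results of these data known. Other settings tried were trimmed-mean scaling, a pseudocount of 0.1, a filter of 5 TPM or none, quantile normalization, removal of ribosomal RNA-like and mitochondrial rows, no variance trend, robust variances, array weights, a replicate block, an adjusted p under 0.1, each library left out and, added after seeing the data, the listed rows rescaled to 1 common sum.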

Additional observations from a re-analysis of the deposited data

Results flagged for a closer look

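Of 66 sets of 5 or 6 libraries looked at, 3 held a library far from the rest of its group, where chance flags about 1 in 20. Cdkn2a stood at 49.4 TPM in overexpression library 2, against 4.78 to 17.5 TPM in the other 4. Control library 2 had the highest share of Ccnd1 among D cyclins, 77.7% against 65.4 to 68.3% in the other 5 controls. The same library had the lowest share of Ccnd2, 11.7% against 20.3 to 24.6%; these shares sum to a fixed whole, so they are not separate flags.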

How the results depend on the processing

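Depth is unknown and limits what low values can show. With each library left out, 353 to 492 genes changed, 206 to 313 higher and 117 to 212 lower, with 0 to 2 members and 1 to 3 other pathway genes. The fewest higher genes came without overexpression library 4, and the lower genes numbered 117, 129, 125 and 129 without overexpression libraries 2 and 5 and control libraries 3 and 6. The other pathway genes numbered 1 without any of overexpression libraries 2 to 5 or control libraries 3 to 6. Members that changed numbered 0 with no filter on low values, where Cdkn1a kept its log2 fold change of 1.04 at an adjusted p of 0.111, and 2 (Cdkn1a and Ccne1) with trimmed-mean scaling, quantile normalization or removal of ribosomal RNA-like and mitochondrial rows. They numbered 3 (also Ccnd3) with array weights or an adjusted p under 0.1. Without overexpression library 1 there were 0, and without control library 5 there were 2 (Cdkn1a and Ccnd3). Other pathway genes that changed numbered 1 with a pseudocount of 0.1, without a filter or with robust variances, 4 with array weights or rescaled listed rows, 5 with trimmed-mean scaling or quantile normalization and 6 without ribosomal RNA-like and mitochondrial rows. Of all genes, 762 changed without ribosomal RNA-like and mitochondrial rows (301 lower), and the lower ones numbered 95 without a filter and 311 with quantile normalization. The filter changes the number of genes tested. Without it the unadjusted limma p of Cdkn1a also rose, from 0.00038 to 0.0023, and its SE rose from 0.232 to 0.264. The cause of these shifts was not tested.

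The log2 fold change of Ccnd2 was 0.0088 on the 10 libraries with and without the replicate block, 0.032 without control replicate 1 and 0.00033 with rescaled listed rows, and ran from -0.23 to 0.03 with each library left out; that of Ccnd1 ran from -0.0031 to 0.15 and that of Rb1 from -0.0021 to 0.13. Deviations of same-numbered libraries correlated at -0.04 to 0.30 across genes, above 0.1 in 1 of 5 pairs. Differently numbered libraries were not set beside them, so these values cannot settle whether the replicate number marks a pairing. With the replicate block on 10 libraries 426 genes changed, among them Cdkn1a (adjusted p = 0.00283), Cdc25b and Gdf15; without the block, the same 10 libraries gave 406 changed genes (129 lower), 1 member and 1 other pathway gene. Cdkn1a, Cdc25b and Klf5 kept their direction under every setting run, as did Ccne1, Ccnd3, Cdk6, Cdk4, Cdkn1b and Cdkn2c.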
